A study of Mus musculus with 2 samples.

Results

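The genes described here are 5 genes of steroid hydroxylation in the membrane of the smooth endoplasmic reticulum: the hydroxylases Cyp21a1 and Cyp17a1, the redox partners Por and Cyb5a, and the reductase Srd5a1. They were chosen by name, and all rows of both deposited tables assigned to them were used, with every transcript model included. They are 5 of the 18177 annotated genes that had a read in either library. All 5 had reads in both libraries and all passed the filter of 10 reads over both.

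Microsomal cytochrome P450 enzymes cannot take electrons from NADPH themselves: the flavoprotein encoded by Por passes the electrons to them, and cytochrome b5, encoded by Cyb5a, can take part in the transfer or bind the P450 and favour the lyase reaction of Cyp17a1. In the adrenal cortex Cyp21a1 hydroxylates progesterone on the way to corticosterone and aldosterone, and Cyp17a1 is the branch point towards cortisol and androgens, a branch that the adult mouse adrenal uses little. Srd5a1 reduces progesterone, corticosterone and testosterone with NADPH as its own donor and needs neither partner.

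Adrenal glands of male B6CASTF1/J mice, the F1 hybrid of C57BL/6J and CAST/EiJ, were taken at 14 days of age and profiled by long-read RNA sequencing, in which 1 read follows 1 molecule across its splice junctions. There was 1 group with 2 libraries, replicate 1 and replicate 2, with no treatment and no second genotype. The labels speak of a set of 3 males, give both libraries the same donor identifier and number the biosamples 03 and 04, so they do not show whether separate animals entered each library. The p-values below compare these 2 libraries and measure counting error, and the spread between them may be technical.

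Replicates 1 and 2 held 964815 and 985101 reads outside the ERCC spike-ins, which are the denominators of CPM, reads scaled to a total of 1000000. A count of 0 allows a level of up to 3 reads, which is 3.11 CPM in the first library and 3.05 CPM in the second. The 6 markers of steroidogenic cortex (Star, Cyp11a1, Hsd3b1, Nr5a1, Mc2r and Scarb1) all had reads and summed to 27236 and 28943 CPM. By gene, the ratio of replicate 2 over replicate 1 was 0.644 for Scarb1, 1.16 for Cyp11a1 and 0.936 to 1.02 for the others. Zonal markers differed too: zona fasciculata Cyp11b1 and Akr1b7 had ratios of 0.782 and 0.566, and zona glomerulosa Cyp11b2 and Agtr1b 0.712 and 1.27. X-zone Akr1c18 and Pik3c2g had 1.98 and 1.68, and both Agtr1b and Pik3c2g had few reads. The 8 hepatocyte markers summed to 754 CPM in replicate 1 and 15655 CPM in replicate 2, with none at 0, and all 8 were higher in replicate 2 by 16.8-fold to 27.9-fold. The 5 chromaffin cell markers summed to 8170 and 7941 CPM and the 4 adipocyte markers to 9675 and 9636 CPM. Of the Leydig cell markers, Insl3 had no read and Hsd17b3 had 2 reads in each library. Which of these cells held the reads of the genes described here was not tested.

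The levels of the 5 genes ran from rank 3 to rank 9169 of the genes with reads, ordered by mean CPM. Cyp21a1 had 7463 reads (7735 CPM) in replicate 1 and 6562 reads (6661 CPM) in replicate 2, and held rank 3. Cyb5a stood at 321 and 459 CPM (310 and 452 reads) and Por at 175 and 150 CPM (169 and 148 reads). The other two were near the limit of detection, Srd5a1 with 13 and 12 reads (13.5 and 12.2 CPM) and Cyp17a1 with 11 and 7 reads (11.4 and 7.11 CPM). Each read counts as 1 molecule whatever its length, so the levels carry no length correction; whether the recovery of molecules depends on their length was not tested. The order Cyp21a1, Cyb5a, Por was the same in both libraries, whereas Srd5a1 and Cyp17a1 could not be ranked against each other at this depth, since their counting intervals overlapped in each library.

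**Figure D1:**
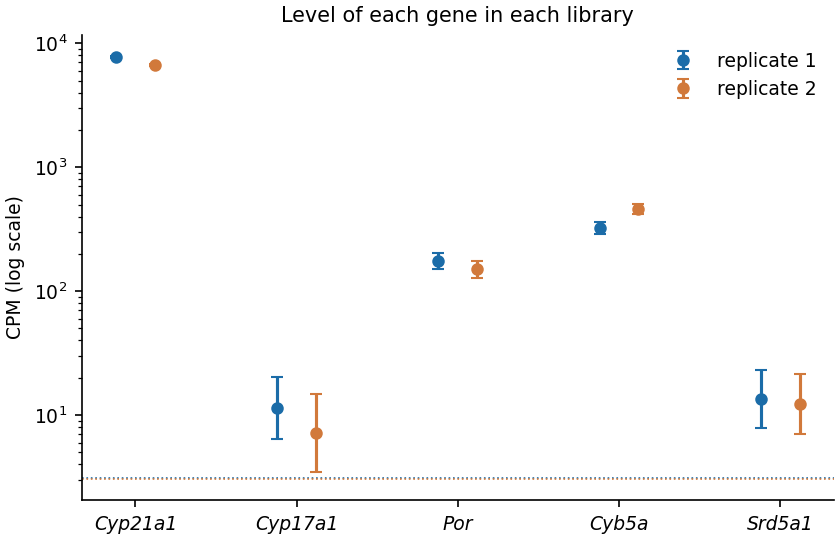
Level of each gene in CPM (log scale) in replicate 1 (blue) and replicate 2 (orange). Bars are 95% Wilson intervals of the counts and the dotted lines mark 3 reads, 3.11 and 3.05 CPM. Cyp21a1 lies far above the rest, and Cyp17a1 and Srd5a1 lie between 7.11 and 13.5 CPM.

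Between the libraries, 2 of the 5 genes passed the threshold, Cyp21a1 in the direction of replicate 1 and Cyb5a in the direction of replicate 2. Over all 11094 genes tested, 9.17% passed (4.81% higher in replicate 1 and 4.35% higher in replicate 2), by a two-sided exact binomial test on the reads of a gene with Benjamini-Hochberg adjustment at 0.05. Of the calls 47.5% were higher in replicate 2, a share that rose to 76.7% with TMM scaling and 70.01% with the median of ratios and fell to 37.3% with ERCC reads. For Cyp21a1 the ratio of replicate 2 over replicate 1 was 0.861, with a 95% exact interval from 0.833 to 0.890 and an adjusted p of 1.24e-16 by that exact binomial test. On the log2 scale its difference was -0.22, against a median of -0.15 over all genes tested. Of the 1894 genes with at least 200 reads, 50.1% had a difference at least as large. The call was lost with TMM scaling, which moved the median of all genes by 0.16 on the log2 scale: the ratio was then 0.961 (adjusted p = 0.156, exact binomial test).

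For Cyb5a the ratio was 1.43 (1.23 to 1.66, with an adjusted p of 4.42e-05 by the exact binomial test), and 12.5% of the genes with at least 200 reads differed as much. It passed under all 8 alternative scalings, filters and read classes that were run, with ratios from 1.37 to 1.59. Cyb5a is abundant in liver, and the hepatocyte markers given above were higher in the same library; their part in the difference was not tested. The Por ratio was 0.858 (0.683 to 1.08, with an adjusted p of 0.510 by the exact binomial test), Cyp17a1 of 0.623 (0.205 to 1.76) and Srd5a1 of 0.904 (0.377 to 2.15), none of them past the threshold. Differences inside these intervals, which are wide for Cyp17a1 and Srd5a1, were not detectable at this depth.

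Ratios between these genes within a library do not depend on how the libraries are scaled. For each read of Por there were 44.2 reads of Cyp21a1 in replicate 1 (37.9 to 51.7) and 44.3 in replicate 2 (37.7 to 52.5). The reductase was thus counted in the same proportion to its most abundant steroid hydroxylase in both libraries, with a ratio of ratios of 1.00 (0.798 to 1.26). For each read of Por there were 1.83 reads of Cyb5a in replicate 1 (1.52 to 2.23) and 3.05 in replicate 2 (2.53 to 3.70), a 1.66-fold difference (1.27 to 2.19). Cyp17a1 had 1 read for every 678 reads of Cyp21a1 in replicate 1 and 1 for every 937 in replicate 2, and the ratio of these proportions, 0.724 (0.238 to 2.05), had an interval that includes 1.

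Cyp21a1 (ENSMUSG00000024365.9, chr17:34801348-34804561 of mm10, minus strand) is the steroid hydroxylase of both the glucocorticoid and the mineralocorticoid route. Of its reads, 6022 of 7463 (80.7%) in replicate 1 and 5219 of 6562 (79.5%) in replicate 2 matched its coding transcript Cyp21a1-201, which has 10 exons and 1461 coding bases without the stop codon. The shorter annotated transcripts, Cyp21a1-202 and Cyp21a1-203, are non-coding, and Cyp21a1-203 holds 1 of the other splice sites described below. The remaining reads were spread over many structures: the tables list 171 and 144 models for the gene, of which 96 and 71 rest on 1 read. Across the 3186 genes with at least 50 reads in each library the median share of known models was 85.5% and 82.7%.

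Spliced reads of Cyp21a1 ran nearly the full length. The junction between exons 1 and 2 was carried by 87.0% as many reads as the junction between exons 9 and 10 in replicate 1 (6361 against 7313) and by 86.8% as many in replicate 2 (5454 against 6285). The largest class apart from Cyp21a1-201 was a model of 9 exons that lacks the first junction, with 385 and 345 reads. The tables class it as truncated. Since the software sets most model ends to annotated ends (96.4% and 93.0% of Cyp21a1 reads by their 5′ end), the models do not tell a molecule that kept intron 1, which is 64 bases long, from one that began inside exon 2. Unspliced reads numbered 134 and 259 and lay in a single model per library inside exon 10; replicate 1 classes it as genomic and replicate 2 as truncated, so those 2 classes cannot be compared between the libraries for this gene. Without them the truncated reads were 8.68% and 10.3%.

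**Figure D2:**
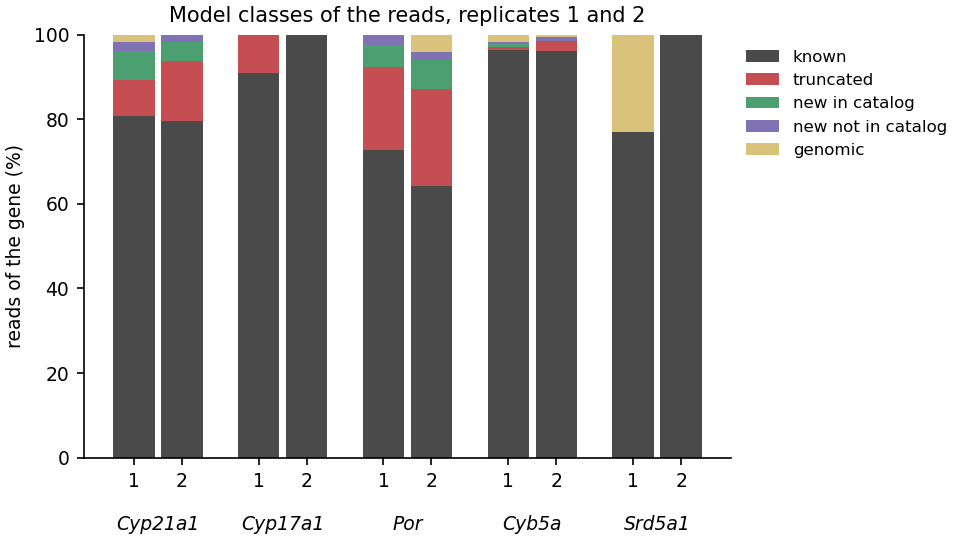
Share of each gene's reads (%) in the model classes, for replicates 1 and 2 of each gene. Known models hold 96.5% and 96.2% of Cyb5a reads, 80.7% and 79.5% of Cyp21a1 reads and 72.8% and 64.2% of Por reads, and the bars of Cyp17a1 and Srd5a1 rest on 7 to 13 reads each.

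Exon skipping in Cyp21a1 fell mainly on exons 4 and 2. Exon 4 has 96 bases, and skipping it keeps the reading frame, leaving 455 of 487 codons. It was skipped in 49 reads and included in 6715 in replicate 1 (0.724%, 95% Wilson interval 0.548 to 0.956) and skipped in 21 against 5844 in replicate 2 (0.358%, 0.234 to 0.547). Exon 2, of 90 bases, was skipped in 32 reads (0.501%) and 23 reads (0.420%), which leaves 457 codons. Exon 5 was skipped in 3 reads and 1 read and exon 8 in 2 of each library, no read skipped exon 3, 6, 7 or 9 alone, and 7 and 3 reads skipped exons 2 and 3 together. Among 36797 internal exons of all genes, 5.82% and 5.76% were skipped at least as often as exon 4. No exon passed the test between the libraries (0 called, 0% of those tested, Fisher's exact test with Benjamini-Hochberg adjustment). Exon 4 was among the 37 with an unadjusted p under 0.05 (0.00560, Fisher's exact test; adjusted p = 1).

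Their sequences are shown because these are the exons most often skipped. In the first, capitals mark exon 4 (chr17:34803348-34803443) between 15 bases of exon 3 and 15 of exon 5. In the second, exon 2 (chr17:34804044-34804133), capitals mark the AG before an unannotated acceptor 25 bases inside the exon. All are read from the GENCODE M21 transcript sequences on mm10, 5′ to 3′ on the minus strand.
Cyp21a1 exon 4: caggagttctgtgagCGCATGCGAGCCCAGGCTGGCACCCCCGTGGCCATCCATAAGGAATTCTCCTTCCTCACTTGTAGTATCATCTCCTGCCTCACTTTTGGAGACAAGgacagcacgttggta
Cyp21a1 exon 2: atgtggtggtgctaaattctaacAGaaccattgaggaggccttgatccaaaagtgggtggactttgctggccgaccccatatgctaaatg

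Other splice sites of Cyp21a1 recurred at the same base in both libraries. In all, 73 junctions outside Cyp21a1-201 were seen, 34 of them in both libraries, and 23 of these had at least 5 reads in total. The acceptor inside exon 2 was used in 33 and 26 reads, or 0.516% (0.368 to 0.724) and 0.474% (0.324 to 0.694) of reads choosing between it and the usual site. It removes 25 bases, shifts the frame and brings a stop at codon 74. An acceptor 18 bases upstream of exon 4 was used in 36 and 31 reads (0.525% and 0.521%), which would add 18 bases of intron 3. At exon 5 an acceptor 5 bases downstream, annotated in Cyp21a1-203, was used in 41 and 25 reads (0.593% and 0.419%), with a stop at codon 251. The intervals of the 2 libraries overlapped at each of these sites.

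Further sites lay in exons 7 and 8. At exon 7 an acceptor 51 bases inside the exon was used in 17 and 14 reads (0.240% and 0.231%) and keeps the frame, whereas one 5 bases inside was used in 13 and 8 reads and shifts it. At exon 8 an acceptor 6 bases inside had 11 reads in each library and removes 2 codons. A donor 62 bases before the end of exon 8 had 17 and 11 reads and leads to a stop at codon 348. Of the 10 acceptors with at least 5 reads in total, 7 lay inside exons of Cyp21a1-201, where the sequence can be read, and each of the 7 followed an AG. The donor 62 bases before the end of exon 8 was followed by GT, whereas 2 rarer donors nearer that end (3 and 4 reads, and 3 and 2 reads) were followed by GC. Windows around 4 of the sites are given below, with the AG or GT next to the splice point in capitals.
Exon 7, 51 bases inside (chr17:34802806-34802835): gactacatgctccAGggagtggagaagcaa
Exon 7, 5 bases inside (chr17:34802852-34802871): gacAGcctggttgcaggcca
Exon 8, 6 bases inside (chr17:34802454-34802474): atccAGaagcgactgcaggaa
Exon 8 donor (chr17:34802352-34802381): gccaccattgccgagGTgctgcgtttgcgg
The window at exon 5, where the acceptor 5 bases inside lies in the same bases as at exon 7, follows:
Exon 5, 5 bases inside (chr17:34803242-34803261): gacAGcacgttggtacagac

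Introns of Cyp21a1 were also retained. An intron was counted as retained only where the covering exon had splice junctions on both sides. Intron 3 (105 bases) was retained in 233 reads and spliced in 6827 in replicate 1, or 3.30% (2.91 to 3.74), and retained in 113 and spliced in 5919 in replicate 2, or 1.87% (1.56 to 2.25). Intron 4 (86 bases), on the other side of exon 4, was retained in 2.98% and 1.80% of reads, intron 6 in 1.86% and 1.48%, intron 8 in 1.91% and 1.09% and intron 7 in 0.977% and 0.707%. Intron 5, of 88 bases, stood at 0.209% and 0.0490%, and intron 2 was spliced in 7081 and 6010 reads and kept in 0 and 1. The order of the introns was nearly the same in both libraries, with introns 3 and 4 highest and introns 5 and 2 lowest.

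Intron 8 is the only one of these introns whose sequence an annotated transcript gives, Cyp21a1-203. It is 68 bases long and is shown with its first and last 2 bases in capitals (chr17:34802237-34802304). Its retention shifts the frame and brings a stop at codon 365.
Cyp21a1 intron 8: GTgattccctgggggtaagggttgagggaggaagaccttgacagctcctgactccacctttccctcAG

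**Figure D3:**
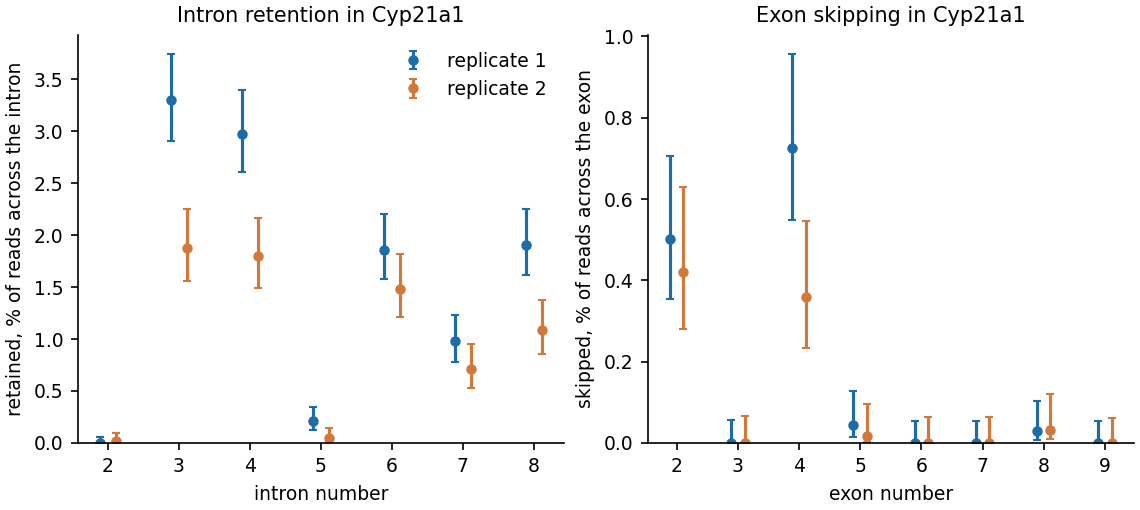
Retention of the internal introns (left, % of reads across the intron) and skipping of the internal exons (right, % of reads across the exon) of Cyp21a1 in replicate 1 (blue) and replicate 2 (orange), with 95% Wilson intervals. Introns 3 and 4 stand highest, at 3.30% and 2.98% in replicate 1 and 1.87% and 1.80% in replicate 2, and exons 2 and 4 are skipped more often than the other exons.

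Intron 3 was the 1 intron of 33050 tested, over all genes, whose retention differed between the libraries (0.00303% called; adjusted p = 0.0107, Fisher's exact test with Benjamini-Hochberg adjustment; 48 introns had an unadjusted p under 0.05). Retention was higher in replicate 1 by 1.43 percentage points. Intron 4 went the same way (adjusted p = 0.190, same Fisher's exact test). This comparison was added after the data had been seen, and Cyp21a1 is among the genes with the most reads, so smaller differences pass here than elsewhere. End-to-end reads were those with a junction at the donor of the first intron and a junction at the acceptor of the last. These junctions need not be the annotated ones. In end-to-end reads the difference shrank to 0.531 points (1.37% of 6439 and 0.836% of 5503 reads) and did not pass (adjusted p = 1, same Fisher's exact test).

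Set beside introns of similar depth, those of Cyp21a1 were retained more often when all spliced reads were counted, and the gap was smaller in end-to-end reads. There were 51 internal introns crossed by at least 2000 reads in each library, 44 of them in 10 other genes. Over these 44 the median retention was 0.00927% and 0.0206%, against 1.86% and 1.09% over the 7 introns of Cyp21a1. In replicate 1, 4 of 7 Cyp21a1 introns exceeded 1%, as did 2 of 44 elsewhere. In replicate 2 the counts were 4 of 7 and 1 of 44. The highest value elsewhere was in intron 7 of Cyp11a1, the mitochondrial side-chain cleavage enzyme, at 2.70% and 2.47%. The 16 introns of at most 360 bases in other genes, the range that holds all 7 of Cyp21a1, had medians of 0.0571% and 0.0438%. End-to-end reads were chosen by the first donor and last acceptor of a gene's leading transcript, a restriction added after the data had been seen. In them 1 of 7 Cyp21a1 introns exceeded 1% in replicate 1 and 0 of 7 in replicate 2. Elsewhere it was 2 and 1 of 44. The Cyp21a1 medians were then 0.390% and 0.255%, the other medians 0% and 0%, and intron 7 of Cyp11a1, at 3.04% and 2.73%, lay above every Cyp21a1 intron. Among the other introns, intron 2 of Hsd3b1 keeps only 10 such reads in each library. The next fewest were 1100 in replicate 1 (intron 7 of Akr1c18) and 1906 in replicate 2 (intron 3 of Aldoa). No test was made of this contrast.

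**Figure D4:**
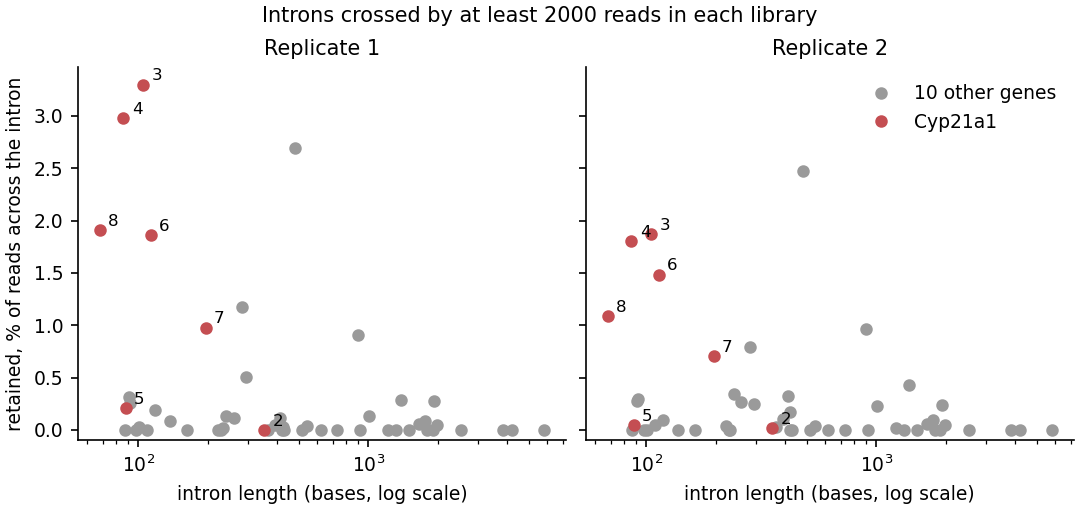
Retention (% of all spliced reads across the intron) against intron length (bases, log scale) for internal introns with at least 2000 reads across them in each library, replicate 1 left and replicate 2 right. Introns of Cyp21a1 are red and numbered, those of 10 other genes grey; introns 3, 4, 6 and 8 lie above 1% in both panels and introns 2 and 5 lie with the grey points.

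Retained introns of Cyp21a1 occurred together on the same molecules. Among end-to-end reads, 30 of 6439 in replicate 1 kept both intron 3 and intron 4, where 0.642 reads would be so if the 2 were independent. In replicate 2 it was 11 of 5503 against 0.234. The odds ratios were 191 (96.1 to 391) and 99.6 (39.2 to 245). Introns 6 and 8, which are not neighbours, were kept together in 7 and 3 reads against 0.105 and 0.0407. Of these end-to-end reads 93.5% and 94.8% showed no departure from Cyp21a1-201, 5.59% and 4.63% showed 1, and 0.621% and 0.418% showed 2.

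The reads that lack the first junction carried far more retained introns. Of reads with the junctions between exons 2 and 3 and between exons 9 and 10 but no first junction, 258 of 672 (38.4%, 34.8 to 42.1) in replicate 1 and 151 of 521 (29.0%, 25.3 to 33.0) in replicate 2 kept at least 1 of introns 3 to 8. Where intron 1 was spliced the shares were 133 of 6352 (2.09%) and 80 of 5444 (1.47%). The contrast held for each intron: intron 4 was kept in 23.7% and 14.8% of reads without the first junction and in 0.724% and 0.496% of reads with it, and intron 8 in 15.03% and 9.40% against 0.409% and 0.257%. Whether intron 1 itself was kept in these molecules cannot be told apart from a start in exon 2.

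**Figure D5:**
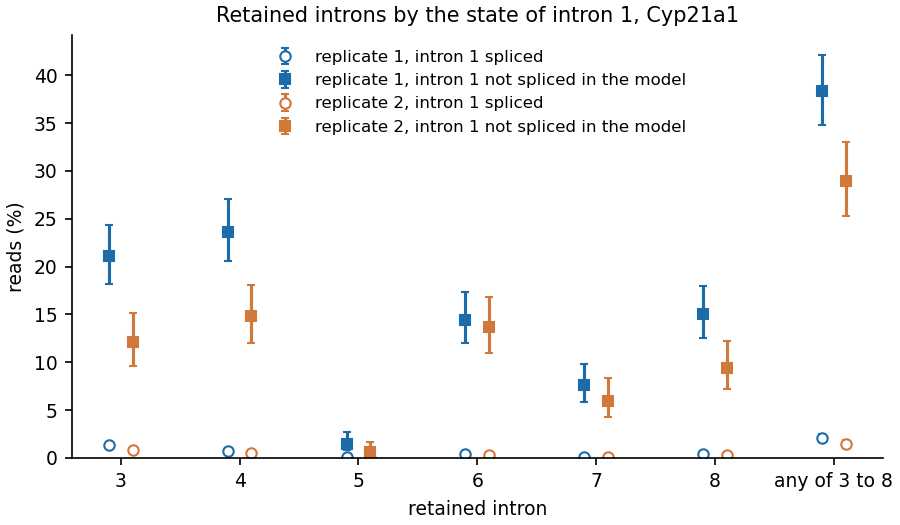
Share of Cyp21a1 reads (%) that kept each of introns 3 to 8, or any of them, for reads whose model splices intron 1 (open circles) and reads whose model does not (filled squares), with 95% Wilson intervals, in replicate 1 (blue) and replicate 2 (orange). The squares for any intron lie at 38.4% and 29.0% and the circles at 2.09% and 1.47%.

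By the test of its leading transcript, the division of Cyp21a1 reads did not differ past the threshold. Of full-splice reads, those of known and new spliced models without truncated ones, Cyp21a1-201 made up 6022 of 6569 (91.7%, 91.0 to 92.3) and 5219 of 5578 (93.6%, 92.9 to 94.2). Reads that lack the first junction were left out when truncated models held them and kept when new models did. Of the 6439 and 5503 end-to-end reads, 93.5% and 94.8% showed no departure from Cyp21a1-201. The adjusted p was 0.0529 by Fisher's exact test, and 0.125% of 4817 genes passed. The full-splice reads fell on 169 intron chains in all, of which 101 had 1 read.

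A near-identical copy of the gene limits the Cyp21a1 counts. The pseudogene Cyp21a2-ps (chr17:34719813-34722252, minus strand) has counterparts of exons 1 and 3 to 10 and none of exon 2, and 1335 of 1371 compared bases (97.4%) are the same in both, with exon 5 identical over 102 bases. It was assigned 214 and 132 reads, or 2.79% (2.44 to 3.18) and 1.97% (1.67 to 2.33) of the reads of both, and its ratio of 0.604 was higher in replicate 1 (adjusted p = 1.51e-04, exact binomial test). Only 30.8% and 26.5% of its reads matched its annotated structure. In addition, 13 reads in each library (0.174% and 0.198% of Cyp21a1 reads) carry a junction from the Cyp21a1 locus to the region of the copy, the most used of which spans 81996 bases and has 9 reads in each library. Reads were aligned to a reference of C57BL/6J, 1 of the 2 parents, and the division of reads between gene and copy is uncertain, including for the 32 and 23 reads without exon 2; it was not tested.

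Cyp17a1 (ENSMUSG00000003555.8, chr19:46667165-46673172, minus strand), which adds the hydroxyl group and cleaves the side chain on the androgen route, was present in 11 and 7 reads. Of these, 10 and 7 were full matches to its coding transcript Cyp17a1-201 of 8 exons, and the last was a truncated model. No read kept an internal intron or skipped an exon. In bulk tissue few cells with much RNA and many cells with little cannot be told apart, here and for the other genes.

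Por (ENSMUSG00000005514.14, chr5:135670033-135735326, plus strand), the reductase shared by all microsomal P450 enzymes, had a share of known models below the median of all genes given above. Its transcript Por-201, of 16 exons and 678 codons, took 123 of 169 reads (72.8%) in replicate 1 and 95 of 148 (64.2%) in replicate 2. Reads thinned towards the 5′ end: the first junction was carried by 127 reads and the last by 160 in replicate 1, or 79.4%, and by 101 and 140 in replicate 2, or 72.1%. For comparison the 5 exons of Cyb5a gave 99.7% and 99.8%. Truncated spliced models held 27 of 169 Por reads (16.0%, 11.2 to 22.2) and 34 of 148 (23.0%, 16.9 to 30.4).

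Por used an upstream first exon at the same low rate in both libraries. Of reads that join a first exon to exon 2, 5 of 132 in replicate 1 (3.79%, 1.63 to 8.56) and 4 of 105 in replicate 2 (3.81%, 1.49 to 9.39) began at the exon ending at chr5:135674661, which the annotation gives to Por-207 and Por-209. The rest used the exon of Por-201 that ends at position 135689252. Internal introns were kept in 0.262% and 0.384% of crossings, against 1.60% and 1.00% in Cyp21a1. The Por shares rest on 5 and 6 retained crossings, and the Cyp21a1 shares include reads that lack the first junction. In end-to-end reads the median over the 7 internal introns of Cyp21a1 was 0.390% and 0.255%. This contrast between the genes was not tested. A single read of Por, in replicate 2, skipped exon 2. The leading transcript made up 90.4% (84.3 to 94.3) and 88.0% (80.5 to 92.8) of full-splice reads, without a call (adjusted p = 1, Fisher's exact test).

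Cyb5a (ENSMUSG00000024646.14, chr18:84838704-84879871, plus strand), which encodes cytochrome b5, had fewer departures from its leading transcript than Cyp21a1 and Por, the other genes with over 100 reads in each library. The coding transcript Cyb5a-204, of 5 exons and 134 codons, took 299 of 310 reads (96.5%) and 435 of 452 (96.2%), and 98.7% and 98.9% of full-splice reads (adjusted p = 1, Fisher's exact test). An annotated exon of 19 bases, part of the nonsense-mediated decay transcript Cyb5a-201, was in none of 303 and 443 reads that spliced over its place. A count of 0 allows a share of up to 0.990% and 0.677%. Counting known models alone, in numerator and denominator, gave Cyb5a levels of 425 and 632 CPM.

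Srd5a1 (ENSMUSG00000021594.11, chr13:69573449-69611442, minus strand), a steroid reductase that does not draw on Por, had 13 and 12 reads. Full matches to its coding transcript Srd5a1-202 of 5 exons numbered 10 and 12; the other 3 reads of replicate 1 were unspliced and lay in the last exon. The sign of its difference turned from 0.904 to 1.23 when only spliced models were counted, and neither value passed. Of the other steroid 5-alpha-reductases, Srd5a2 had 114 and 164 reads (118 and 166 CPM; ratio 1.41, adjusted p = 0.0516, and 0.00380 with TMM, exact binomial test) and Srd5a3, which acts mainly on polyprenol, had 15 and 13 reads. Reads of the Srd5a2 gene thus outnumbered those of Srd5a1 in both libraries.

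Genes related to cytochrome b5 and the other acceptors of Por electrons were tested in the same way. Their calls are to be read against the 9.17% of all genes that passed. In lists of 8 and 7 tested genes, 0 calls cannot be told apart from that share. Of the cytochrome b5 reductases and related heme proteins, 0 of 8 tested passed (exact binomial test; Cyb5r1 and Pgrmc1 had an unadjusted p under 0.05), and Cyb5r2 had no read. With TMM or the median of ratios 1 of the 8 passed, the heme-binding protein Pgrmc1, higher in replicate 2 (ratios 1.26 and 1.22). Of all 11094 genes, 673 and 607 were higher in replicate 2 with these scalings. The highest of the electron donors to cytochrome b5 was Cyb5r3, at 431 and 381 CPM, and the outer mitochondrial form Cyb5b stood at 317 and 334 CPM, beside 321 and 459 CPM for Cyb5a. Of the other acceptors of Por electrons 0 of 7 passed (exact binomial test; Cyp1b1 alone had an unadjusted p under 0.05), among them the sterol enzymes Cyp51 (67.4 and 78.2 CPM) and Sqle (47.7 and 43.7 CPM) and the heme oxygenase Hmox2 (143 and 121 CPM), while Hmox1 had no read. These lists had median log2 differences of -0.12 and -0.13, beside -0.15 over all genes tested.

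Of the other steroid enzymes of the endoplasmic reticulum, 2 of 9 tested were higher in replicate 2 and none was higher in replicate 1; with TMM or the median of ratios it was 4 of 9, Srd5a2 and Hsd3b1 being added. Over all genes tested 4.35% were higher in replicate 2 and 4.81% higher in replicate 1 with the main scaling. With TMM 673 of 11094 genes were higher in replicate 2 and 205 in replicate 1, and with the median of ratios 607 and 260. Hsd11b1, which regenerates corticosterone, had 28 and 72 reads. It was 2.52-fold higher (1.61 to 4.05), with an adjusted p of 4.12e-04 by the exact binomial test. Sult2a1, a sulfotransferase of steroids and bile acids, had 3 and 187 reads (ratio 61.05, 20.6 to 299). Both are known from liver, where the markers given above were higher in the same library, and the part of that difference was not tested. Of the mitochondrial list, whose P450 enzymes draw on ferredoxin and not on Por, 3 of 6 genes were higher in replicate 1 (Star, Cyp11b1 and Cyp11b2) and Cyp11a1 was higher in replicate 2, while the electron carriers Fdx1 (1425 and 1503 CPM) and Fdxr (499 and 476 CPM) did not pass. These calls moved with the scaling: with TMM only Cyp11b1 was higher in replicate 1, Fdx1 joined Cyp11a1 as higher in replicate 2 (ratio 1.18), and Star turned to a ratio of 1.04 without a call. The mitochondrial reductase Fdxr was counted at a higher level than the microsomal reductase Por in both libraries.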

How the data were processed

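Long-read RNA was measured in 2 adrenal libraries of 1 group. The authors deposited whole-number read counts per transcript model, without normalization and with 1 table and 1 annotation per library, on mm10 with GENCODE M21, per the file headers and the labels. TALON is named in the annotation, per the file headers, and neither header nor label states the aligner or its filters.

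Counts were summed per gene over all models. Every gene reaching 10 reads in the 2 libraries together was compared with a two-sided exact binomial test (scipy 1.17.1), with Benjamini-Hochberg adjustment over all 11094 genes and a threshold of 0.05. The leading intron chain was compared with Fisher's exact test of genes for which each of the 2 libraries held 20 or more full-splice reads. Introns and exons of each gene's leading annotated transcript were compared in the same way, with at least 20 reads across them; this was chosen after seeing the data. First and last introns were left out, since the model ends are set by the software. Intervals are 95%, exact for ratios and Wilson for shares. Reads carry no molecular identifiers in these tables, so intervals and limits cover counting error only. Log2 differences add 0.5 reads to each library.

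The 5 genes and all lists were chosen with earlier results of these data known. All 5 were named, and any listed gene with at least 10 reads could be. Alternatives were TMM (edgeR 4.0.16), median of ratios, ERCC reads, reads in annotated genes, known or spliced models only, and other read minimums. The scalings were also applied to the lists, a choice made after seeing the data. Sequences of Cyp21a1 were read from the GENCODE M21 transcripts.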

Additional observations from a re-analysis of the deposited data

Results flagged for a closer look

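Reads outside the rows of the 5 genes lay on the strand opposite to Cyb5a, within the bounds of the gene: 9 in replicate 1, in 1 model, and 9 in replicate 2, in 2 models. All were unspliced, are classed as antisense and belong to no annotated gene; the limit of a count of 0 is 3 reads. The pseudogene copy Cyp21a2-ps had 214 reads in replicate 1 and 132 in replicate 2, also above that limit.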

How the results depend on the processing

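Of 112 recomputed values, 90 kept their direction and side of the threshold or stayed within the spread between the libraries. For counts of calls the rule was instead a fixed fold of the main count. The levels without 1 replicate are among the 90, but must stay within that spread by construction and test nothing. With TMM scaling 1 of the 5 genes passed in place of 2, since Cyp21a1 did not (ratio 0.961). The ratio of Srd5a1 turned to 1.01 with TMM, 1.23 with known models and 1.23 with spliced models, never past the threshold. TMM and the median of ratios moved the median of all genes by 0.16 and 0.11 (log2). Mean levels with known models were 8076 CPM (Cyp21a1), 529 (Cyb5a) and 15.8 (Srd5a1), and with spliced models 8409 (Cyp21a1) and 188 (Por). Per read of Por there were 51.9 reads of Cyp21a1, 3.505 of Cyb5a and 0.104 of Srd5a1 with known models, and 44.7 of Cyp21a1 and 0.0729 of Srd5a1 with spliced models; the cause was not tested. Without replicate 1 or replicate 2 each level is that of the other library, 6661 to 7735 CPM for Cyp21a1, 7.11 to 11.4 for Cyp17a1, 150 to 175 for Por, 321 to 459 for Cyb5a and 12.2 to 13.5 for Srd5a1.

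Introns called were 2 with at least 100 reads across them and 2 without truncated models, intron 4 of Cyp21a1 joining intron 3 (adjusted p = 0.0418 and 0.0453, Fisher's exact test). The setting without truncated models favours retention. It removes reads that lack the first junction but splice as annotated, and keeps those with a retained intron, which are new models. The count of introns called was 0 when Cyp21a1 was taken from end-to-end reads, where the difference of intron 3 was -0.53 points. Intron 6 turned to 0.0439 points without truncated models. Known models alone leave a single chain for Cyp21a1, Por and Cyb5a, so the share of the leading transcript has no value there. No paired analysis was possible because there is 1 group. With 11 and 7 or 13 and 12 reads, differences inside the intervals given above for Cyp17a1 and Srd5a1 were not detectable.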

Other observations

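Of the neighbours of these loci, 3 of 12 tested were higher in replicate 1 and none was higher in replicate 2, beside 4.81% and 4.35% of all genes tested: the pseudogene copy described above, the exosome helicase Skiv2l beside the Cyp21a1 region (97.4 and 51.8 CPM, ratio 0.531, adjusted p = 0.00511, exact binomial test) and the mitochondrial import gene Timm21 downstream of Cyb5a (88.1 and 52.8 CPM, ratio 0.599, adjusted p = 0.0413, exact binomial test). With TMM or the median of ratios Timm21 did not pass (adjusted p = 0.195 and 0.125, exact binomial test) and Tmem120a, beside Por, was higher in replicate 2. That made 2 of 12 higher in replicate 1 and 1 higher in replicate 2. Of all 11094 genes it was 205 and 673 with TMM, and 260 and 607 with the median of ratios. The complement genes C4a and C4b, duplicated along with Cyp21a1, stood at 114 and 116 CPM and at 124 and 133 CPM, with no call. Fbxo15 had no read.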
